A study of Danio rerio with 8 samples.

Results

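The aminoacyl-tRNA synthetase genes of zebrafish larvae were compared between larvae mutant for *seph*, which encodes selenoprotein H and is now named *selenoh*, and wild type larvae. A gene was a member if its Ensembl ID carries a symbol of a one-letter amino acid code and "ars", with or without a final 1 or 2. The codes E, F and P were not part of this pattern, so *pars2* lies outside the symbol rule. The letters ep or pp in place of the code, and the symbols farsa, farsb, fars2 and ears2, also counted. Of the 32434 genes listed in the count table, 24 members are described. Of these, 14 were read as cytosolic (a final 1, or farsb) and 10 as mitochondrial (a final 2). The name table holds 7 further IDs with such symbols (*aars2*, *ears2*, *farsa*, *kars1*, *nars2*, *sars2* and *wars1*), which are not analysed here. There were 4 libraries labelled SepH mutant and 4 labelled WT, all of polyadenylated RNA from whole larvae aged 5 days post fertilization. No treatment is named for either group, and the sources used here give neither the allele, the background strain nor the number of larvae per library.

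Aminoacyl-tRNA synthetases join each amino acid to its transfer RNA, using ATP, and so set the meaning of the genetic code at every ribosome. Nuclear genes encode 2 sets, one that works in the cytosol and one that is imported to serve the ribosomes of mitochondria. The enzymes fall into class I and class II by the fold of their catalytic domain. In vertebrates several cytosolic enzymes, among them those for Arg, Gln, Ile, Leu, Lys and Met, sit together in the multisynthetase complex, held by the scaffold proteins Aimp1, Aimp2 and Eef1e1. Many cytosolic synthetase genes are known in mammals as targets of the stress transcription factor ATF4, which is translated when amino acids run short or the endoplasmic reticulum is stressed.

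The libraries held between 51246749 and 56409917 counts, and the members had between 136 and 12555 counts in a library. *selenoh* had 1, 20, 0 and 0 counts in the mutant libraries, against 854, 855, 1225 and 737 in WT libraries, so each library matched its label. An unnamed gene has the same 8 counts as *selenoh*, while no member shares its counts with another gene. The replicate 3 libraries of both groups stood apart on the second principal component, 20.5% of the variance, at -59.6 in the mutant and -71.0 in WT, against 15.7 to 27.4 for the other 6. Of the 8 lists of tissue markers, every marker with values in the count table had counts in every library. The lowest was 10 counts, for *ptf1a* in mutant replicate 1. Listed markers without a symbol match or without values are not covered. The exocrine pancreas list differed most between groups. All 15 of its members fell, and their summed level lay between 103 and 237 CPM (counts scaled by library size and TMM factors) in the mutant and between 12570 and 31660 CPM in WT. Of the photoreceptor markers 5 of 6 fell, with sums of 77.9 to 652 CPM in the mutant and 1383 to 2117 CPM in WT, and of the lens markers 5 of 6 fell, with sums of 576 to 1644 CPM in the mutant and 1758 to 2661 CPM in WT. Skeletal muscle (52750 to 61600 CPM in the mutant, 42580 to 54160 CPM in WT) and proliferation markers (266 to 421 CPM in the mutant, 279 to 704 CPM in WT) had no called member among 10 each in edgeR, where 2 muscle and 1 proliferation marker had an unadjusted p under 0.05. The DESeq2 Wald test and limma-voom with quality weights each called 2 muscle markers higher and 1 proliferation marker lower. Of the liver markers 1 of 7 rose and 2 fell, and 2 of 8 neuron and 2 of 5 erythroid markers fell. Over all genes tested, edgeR called 8.65% higher and 8.45% lower, and 31.9% had an unadjusted p under 0.05. The DESeq2 Wald test called 11.4% of all genes higher and 12.3% lower, and limma-voom 18.6% and 17.6%. The part of these tissues in the values below was not tested. In bulk samples, fewer cells of a type and less RNA per cell cannot be told apart.

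In the main edgeR fit a single synthetase gene, *qars1*, was called higher in the mutant, and none of the 24 was called lower. The number depends on the fit. With limma-voom 6 cytosolic genes and 1 mitochondrial gene were called higher, beside 18.6% of all genes. The fits without mutant replicate 2, WT replicate 1 or WT replicate 2 called none. All 27050 genes that passed the count filter were tested with edgeR's quasi-likelihood (QL) test and p-values were adjusted by the Benjamini-Hochberg (BH) method. At an adjusted p under 0.05, 1 of 24 members was called, where 17.1% of all genes tested were called in either direction. By direction, 8.65% of all genes rose and 8.45% fell. At an unadjusted p under 0.05 the count was 3 of 24 members, against 31.9% of all genes. The members' log2 fold changes (mutant over WT) ran from -0.22 to 0.70 with a median of 0.14, while the median over all genes was 0.01. For 22 of the 24 the 95% interval of the fold change, unadjusted for the number of genes, lay within 2-fold in either direction, and for 16 it lay within 1.5-fold. The genes whose interval reached beyond 2-fold were *qars1* and *yars1*.

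**Figure D1:**
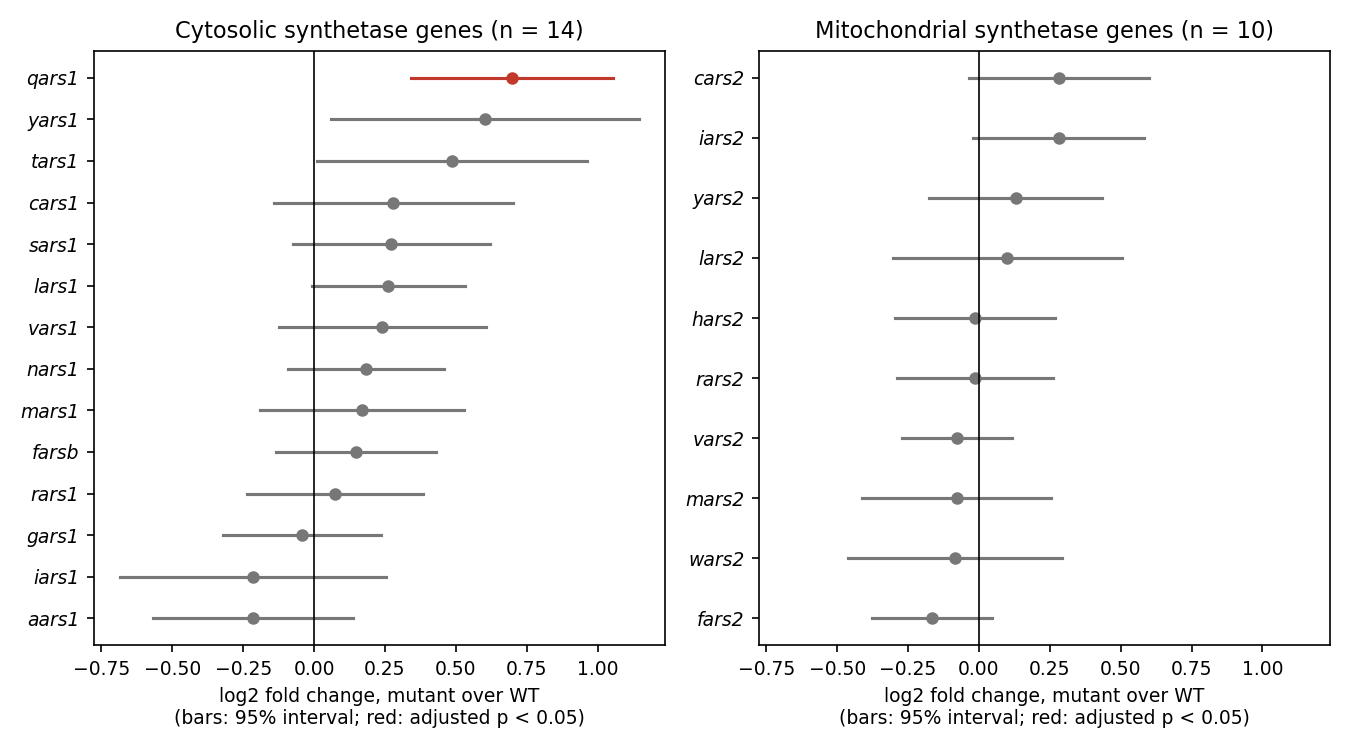
Log2 fold change (mutant over WT, x axis) of each cytosolic gene (left, 14) and mitochondrial gene (right, 10), with its 95% interval from the edgeR fit as a bar. *qars1* (0.70) is the only member drawn in red, as called at an adjusted p under 0.05, and the mitochondrial genes lie between -0.17 and 0.28.

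Among the cytosolic genes of the multisynthetase complex, *qars1* had the largest log2 fold change. *qars1* (ENSDARG00000010316), the class I enzyme that charges glutamine, had 39.6, 44.1, 42.3 and 36.7 CPM in the mutant libraries, against 21.4, 21.1, 34.1 and 23.7 CPM in WT. Every mutant library was above every WT library, and WT replicate 3 was the WT library nearest to the mutant. Such a separation was seen upward in 11.0% of all genes tested and downward in 11.1%. The level averaged 40.7 ± 3.24 CPM in the mutant and 25.1 ± 6.12 CPM in WT (SD, n = 4 each), a log2 fold change of 0.70 ± 0.16 (SE), or 1.62-fold, with edgeR QL, BH-adjusted p = 0.0168. The call did not survive leaving out mutant replicate 2, WT replicate 1 or WT replicate 2 (edgeR QL, BH-adjusted p = 0.0522, 0.0571 and 0.0587), and the adjusted p ran from 0.000265 to 0.0587 over all alternatives.

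**Figure D2:**
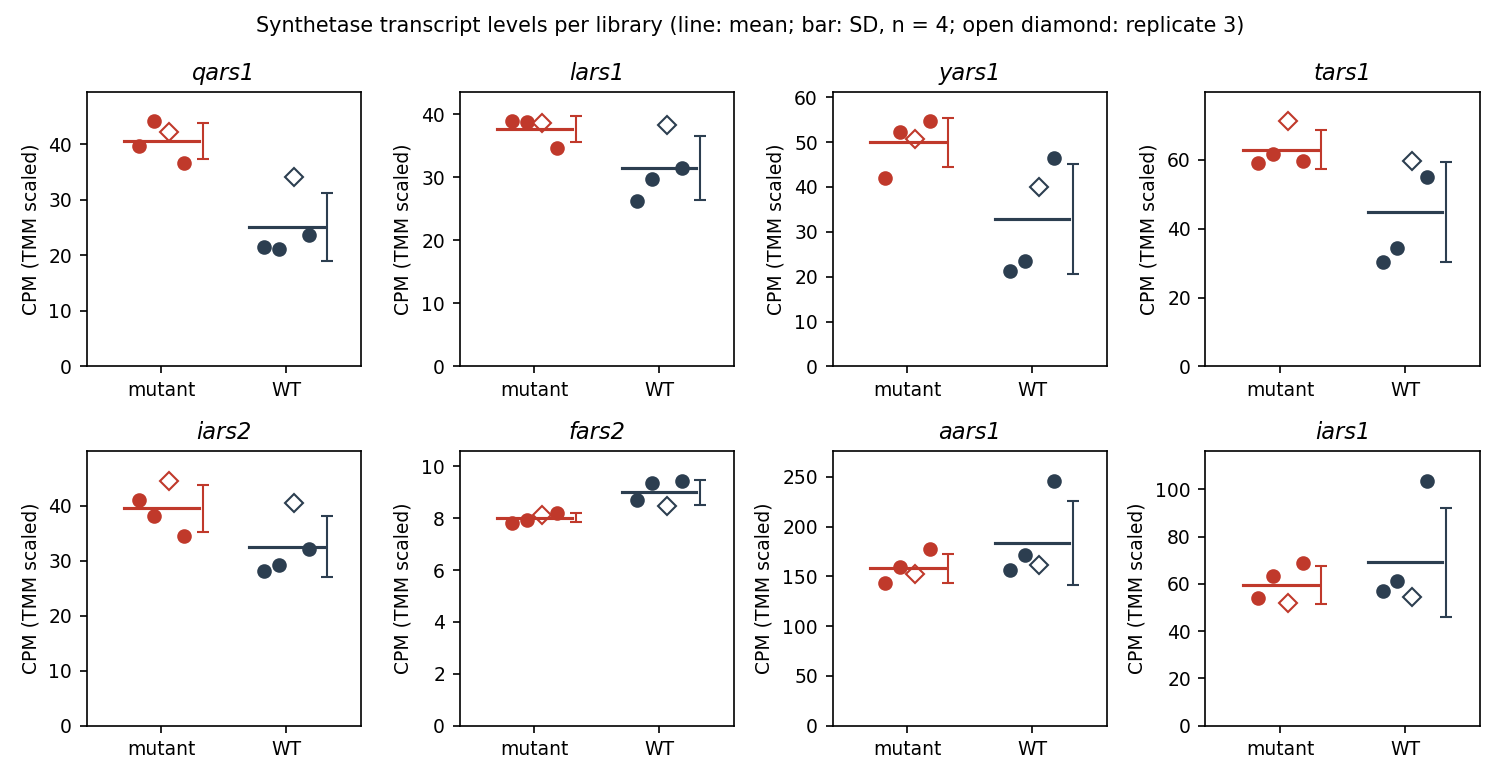
Level (CPM, TMM scaled, y axis from 0) of 8 synthetase genes in each mutant library (left, red) and WT library (right, dark), with the group mean as a line, the SD as a bar (n = 4) and replicate 3 as an open diamond. The groups are separate for *qars1* and *fars2*, and in *lars1* WT replicate 3 (38.4 CPM) lies among the mutant libraries.

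The other complex genes of the symbol rule analysed here were *lars1*, *mars1*, *rars1* and *iars1*. None of them was called by edgeR or the DESeq2 Wald test. *eprs1*, also of the complex, lies outside the symbol rule and had a log2 fold change of -0.17 ± 0.13 (SE). *lars1* (ENSDARG00000019280), the leucine enzyme, which in mammals also senses leucine for the mTORC1 kinase, had 38.9, 38.9, 38.6 and 34.7 CPM in the mutant, against 26.2, 29.8, 38.4 and 31.5 CPM in WT. Its log2 fold change was 0.26 ± 0.12 (SE, edgeR QL, BH-adjusted p = 0.17), and WT replicate 3 alone among WT libraries reached the mutant range. limma-voom with quality weights called *lars1* higher (adjusted p = 0.0124), as it did 18.6% of all genes. A second leucine gene, *lars1a* (ENSDARG00000090988), lies outside the symbol rule and had a log2 fold change of 0.31 ± 0.15 (SE, edgeR QL, BH-adjusted p = 0.178). Whether reads were divided between such copies is not stated in the sources used here, so their values are uncertain. *mars1* (methionine) and *rars1* (arginine) had log2 fold changes of 0.17 ± 0.16 and 0.07 ± 0.14 (SE). *iars1* (ENSDARG00000007955), for isoleucine, had 54.1, 63.3, 51.8 and 68.8 CPM in the mutant, against 57.1, 61.2, 54.3 and 103.7 CPM in WT. Here WT replicate 4 alone was high, the groups overlapped, and the log2 fold change was -0.22 ± 0.21 (SE).

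Outside the complex, 9 cytosolic genes were measured and none was called, although 2 had an unadjusted p under 0.05. Among all genes tested, 17.1% were called and 31.9% had such a p. The DESeq2 Wald test called none of the 9, beside 11.4% of all genes higher and 12.3% lower. limma-voom called 4 higher (*yars1*, *tars1*, *sars1* and *cars1*), where it called 18.6% of all genes higher and 17.6% lower. *yars1* (ENSDARG00000035913), the tyrosine enzyme, had 41.9, 52.4, 50.8 and 54.6 CPM in the mutant, against 21.3, 23.6, 40.0 and 46.5 CPM in WT. WT replicates 1 and 2 were far below all other libraries, while WT replicate 4 lay within the mutant range. Its log2 fold change was 0.60 ± 0.24 (SE, 95% interval 0.06 to 1.15, edgeR QL, BH-adjusted p = 0.119). Without WT replicate 4 it was called higher, at 0.81 (edgeR QL, BH-adjusted p = 0.0474; 0.00754 to 0.275 over its alternatives).

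*tars1* (ENSDARG00000013250), the threonine enzyme, showed the same division of the WT libraries. It had 59.0, 61.8, 71.2 and 59.7 CPM in the mutant, against 30.3, 34.4, 59.7 and 55.1 CPM in WT. WT replicates 1 and 2 were low and WT replicates 3 and 4 were at or close to the mutant levels. WT replicates 1 and 2 were also the closest pair of libraries within a group, and may not be independent of each other. The log2 fold change was 0.49 ± 0.21 (SE, 95% interval 0.01 to 0.96, edgeR QL, BH-adjusted p = 0.148).

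*sars1* (ENSDARG00000008237), the serine enzyme, also puts serine on the selenocysteine tRNA, the first step towards the amino acid that selenoprotein H carries. Its level was 85.6, 95.1, 105.8 and 95.1 CPM in the mutant, against 61.1, 68.5, 97.6 and 88.5 CPM in WT. The groups overlapped and the log2 fold change was 0.27 ± 0.15 (SE, edgeR QL, BH-adjusted p = 0.262). *sepsecs*, whose enzyme completes selenocysteine on that tRNA, had a log2 fold change of 0.01 ± 0.16 (SE).

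The remaining cytosolic genes were *cars1* (cysteine), *vars1* (valine), *nars1* (asparagine), *farsb* (a subunit of the phenylalanine enzyme), *gars1* (glycine) and *aars1* (alanine). Their log2 fold changes were 0.28 ± 0.19 for *cars1*, 0.24 ± 0.16 for *vars1*, 0.18 ± 0.12 for *nars1*, 0.15 ± 0.13 for *farsb*, -0.04 ± 0.12 for *gars1* and -0.22 ± 0.16 for *aars1* (SE). *gars1* in vertebrates gives rise to both the cytosolic and the mitochondrial enzyme. *aars1* (ENSDARG00000069142) had 143, 159, 152 and 178 CPM in the mutant, against 156, 172, 161 and 246 CPM in WT, with WT replicate 4 well above the rest. Over the 14 cytosolic genes the median log2 fold change was 0.21, with 11 above 0 and 1 called, where 13741 of 27050 genes tested were above 0. Between libraries of the same number, 11, 13, 12 and 6 of the 14 were higher in the mutant for replicates 1 to 4. The genes share these libraries, so the counts are not independent. By class, 1 of 8 class I genes and 0 of 6 class II genes were called in edgeR and in the DESeq2 Wald test. The unadjusted edgeR p was under 0.05 for 2 class I genes and 1 class II gene. Over all genes, edgeR called 17.1% and 31.9% had such a p, while the DESeq2 Wald test called 11.4% higher and 12.3% lower. limma-voom called *qars1*, *yars1*, *lars1* and *cars1* of class I and *tars1* and *sars1* of class II, beside 18.6% of all genes called higher. The summed level of the 14 genes was 862, 943, 988 and 964 CPM in the mutant, against 711, 765, 915 and 1075 CPM in WT. The WT libraries held both the lowest and the highest of these sums.

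No mitochondrial synthetase gene was called among 10. In the edgeR test none had an unadjusted p under 0.05, where 17.1% of all genes were called and 31.9% had such a p. The DESeq2 Wald test called none, beside 11.4% of all genes higher and 12.3% lower. limma-voom with quality weights called 1, *iars2*, higher, beside the same 18.6% of all genes called higher. Their median log2 fold change was -0.01 and their range was -0.17 to 0.28. The 95% interval of every one of the 10 lay within 2-fold in either direction, and that of 9 within 1.5-fold, *cars2* being the exception.

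*iars2* (ENSDARG00000044134), the mitochondrial isoleucine enzyme, had 41.0, 38.2, 44.6 and 34.5 CPM in the mutant, against 28.2, 29.3, 40.5 and 32.2 CPM in WT. Only WT replicate 3 lay within the mutant range, and the log2 fold change was 0.28 ± 0.13 (SE, edgeR QL, BH-adjusted p = 0.187). *cars2*, for cysteine, which in mammals also makes cysteine persulfides, had 18.03, 14.1, 11.5 and 13.5 CPM in the mutant, against 12.6, 11.9, 10.5 and 11.9 CPM in WT, with mutant replicate 1 highest and a log2 fold change of 0.28 ± 0.14 (SE).

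*fars2* (ENSDARG00000091247), for phenylalanine, was the only mitochondrial gene whose groups did not overlap. Its level was 7.82, 7.92, 8.13 and 8.22 CPM in the mutant, against 8.71, 9.37, 8.47 and 9.45 CPM in WT. Each mutant library was below each WT library, a pattern seen in 11.1% of all genes tested. The difference was small, -0.17 ± 0.09 on the log2 scale (SE), and was not called (edgeR QL, BH-adjusted p = 0.262). *yars2* (tyrosine), *lars2* (leucine), *rars2* (arginine), *vars2* (valine), *mars2* (methionine) and *wars2* (tryptophan) had overlapping groups and log2 fold changes between -0.08 (*wars2*) and 0.13 (*yars2*).

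*hars2* (ENSDARG00000003693) carries the mitochondrial name, but the GRCz12tu gene table lists 1 histidine gene, *hars*, and zebrafish are known to make both histidine enzymes from a single gene. It had 74.1, 82.3, 84.6 and 88.6 CPM in the mutant, against 68.7, 77.8, 86.1 and 99.7 CPM in WT, with a log2 fold change of -0.01 ± 0.13 (SE). Without it, the median log2 fold change of the other 9 mitochondrial genes was -0.01, and the count of calls was still 0 in edgeR and in the DESeq2 Wald test.

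For 8 amino acids both a cytosolic and a mitochondrial member were measured and their ratio was taken within each library, with 0.5 CPM added to each level. In all 8 the mutant and WT ranges of this ratio overlapped. The mutant mean was above the WT mean for 7 of the 8 and below it for Ile, with a median difference of 0.21 on the log2 scale. The largest gaps were for Tyr and Ile. The log2 ratio of *iars1* to *iars2* was 0.39, 0.72, 0.22 and 0.99 in the mutant, against 1.004, 1.05, 0.42 and 1.67 in WT, a difference in means of -0.46. WT replicate 3 alone lay within the mutant range. The log2 ratio of *yars1* to *yars2* was 2.11, 2.47, 2.77 and 2.63 in the mutant, against 1.40, 1.69, 2.44 and 2.296 in WT, a difference in means of 0.54. There WT replicates 1 and 2 were below every mutant library. No p is given for these ratios.

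**Figure D3:**
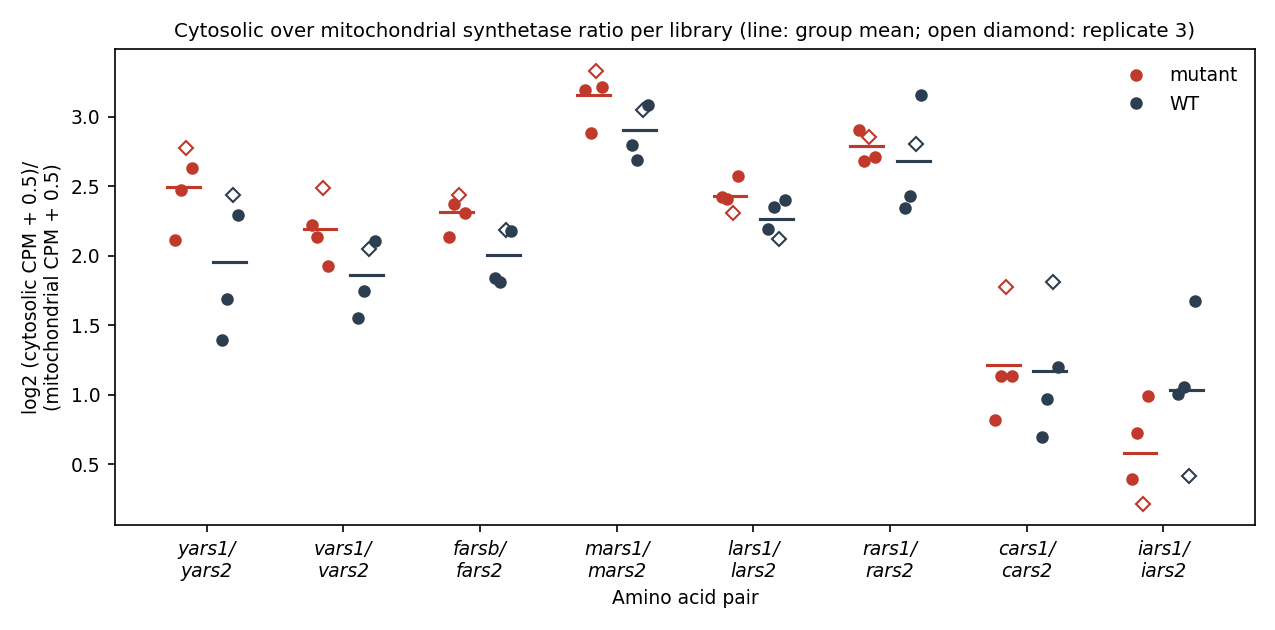
Log2 ratio of cytosolic to mitochondrial synthetase CPM (0.5 CPM added to each, y axis) per library for 8 amino acids, with mutant libraries in red at the left of each pair, WT libraries in dark at the right, group means as lines and replicate 3 as open diamonds. The 2 groups overlap in every pair, and heights of different pairs cannot be compared because CPM are not per length.

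The cytosolic genes varied more among WT libraries than among mutant libraries. The coefficient of variation over 4 libraries was larger in WT for 14 of 14 cytosolic genes and 6 of 10 mitochondrial genes, against 52.8% of all genes tested. Its median was 9.13% in the mutant and 21.3% in WT for cytosolic genes, 11.5% in the mutant and 12.2% in WT for mitochondrial genes, and 16.0% in the mutant and 16.97% in WT for all genes. These genes share the same 8 libraries, so the counts are a description without a test. The 6 mitochondrial genes include *hars2*, which stands for both histidine enzymes as described above. It had 82.4 ± 6.12 CPM in the mutant and 83.1 ± 13.2 CPM in WT (SD, n = 4 each).

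The WT libraries departed from each other in different genes. WT replicate 4 was the highest WT library for 8 of 14 cytosolic genes and WT replicate 3 for the other 6, while WT replicates 1 and 2 were each below the mean of the other WT libraries in all 14. As the closest pair within a group, at 8.1 times counting noise, WT replicates 1 and 2 may not be independent of each other. No label says whether they are separate clutches. Relative to the mean of the other WT libraries on the log2 scale, WT replicate 4 was furthest above for *iars1* (0.85), *yars1* (0.77) and *aars1* (0.60). WT replicate 3 was above the other WT libraries by 0.67 for *cars1*, 0.63 for *qars1*, 0.63 for *tars1* and 0.63 for *lars2*, and differed from them by -0.39 for *iars1*. In the mutant, replicate 3 departed the same way for *cars1* (0.37), *tars1* (0.24), *lars2* (0.22) and *iars1* (-0.25), while for *qars1* it lay 0.08 above the other mutant libraries.

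**Figure D4:**
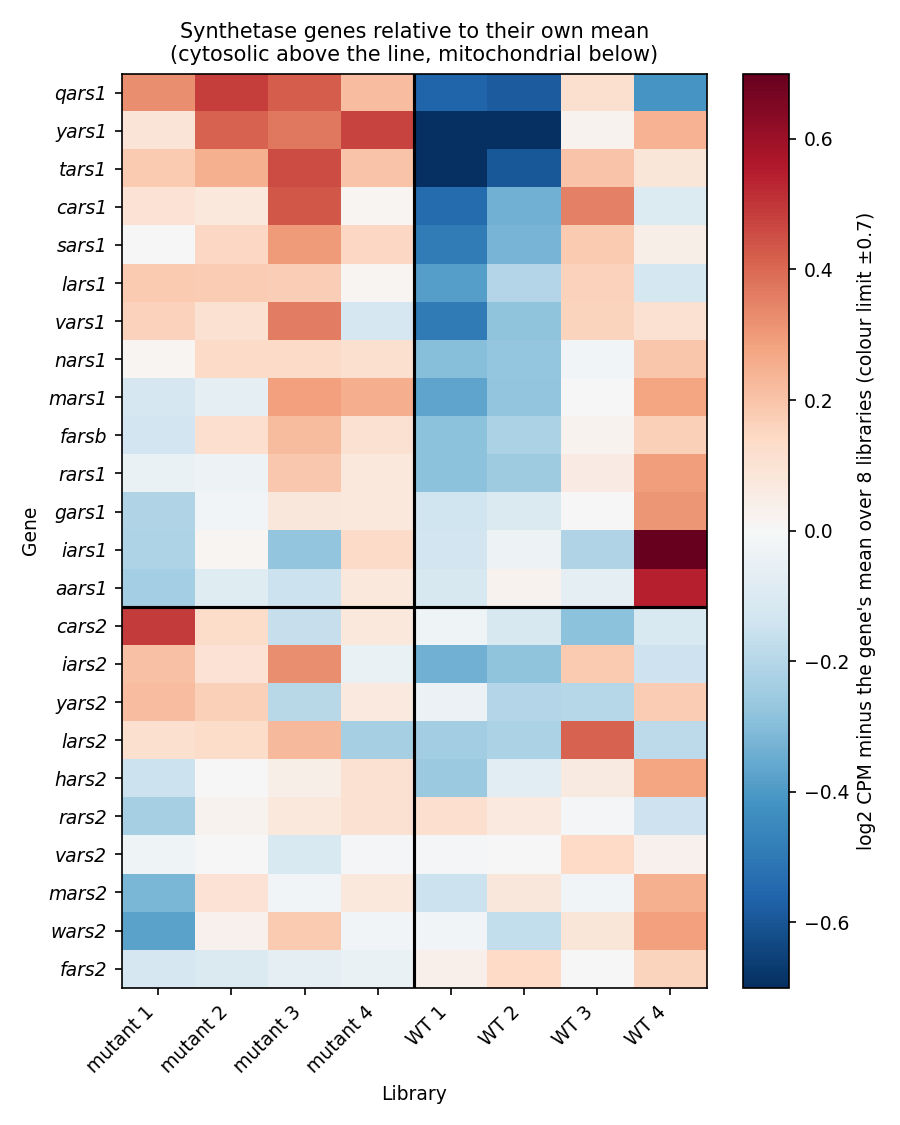
Log2 CPM of each synthetase gene (rows) in each library (columns, mutant left and WT right) minus that gene's mean over the 8 libraries, with colours ending at ±0.7. Cytosolic genes (above the line) are mostly low in WT replicates 1 and 2, and *iars1* and *aars1* are high in WT replicate 4.

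Among fits that left out 1 library, that without WT replicate 3 changed the counts of called members most. Then 4 cytosolic genes (*qars1*, *tars1*, *lars1* and *cars1*) and 1 mitochondrial gene (*iars2*) were called higher and none lower, while 13.4% of all genes rose and 12.3% fell. The log2 fold changes were 0.88 for *qars1*, 0.66 for *tars1*, 0.48 for *cars1*, 0.40 for *iars2* and 0.37 for *lars1*. With both replicate 3 libraries left out, the calls were *qars1*, *lars1*, *cars1* and *iars2*, all higher, beside 15.5% of all genes higher and 14.6% lower.

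Synthetase genes and related genes outside the symbol rule were also examined. For comparison, edgeR called 17.1% of all genes tested, and 31.9% had an unadjusted p under 0.05. The DESeq2 Wald test called 11.4% of all genes higher and 12.3% lower. None of the 6 genes listed (*eprs1*, *pars2*, *tars3*, *lars1a*, *aarsd1* and *sepsecs*) was called by edgeR, none had an unadjusted p under 0.05, and their log2 fold changes ran from -0.22 to 0.32. The DESeq2 Wald test called none and limma-voom 2, both higher, where it called 18.6% of all genes higher. *eprs1*, the joint enzyme for glutamate and proline in the multisynthetase complex, averaged 143 ± 15.4 CPM in the mutant and 161 ± 25.1 CPM in WT (SD, n = 4 each). *pars2*, the mitochondrial proline enzyme, averaged 4.00 ± 0.80 CPM in the mutant and 3.27 ± 0.81 CPM in WT (SD, n = 4 each). Of the 4 scaffold genes of the complex edgeR called none and none had an unadjusted p under 0.05. The DESeq2 Wald test called none, and limma-voom called 2 lower, where it called 17.6% of all genes lower. One *aimp1* gene (ENSDARG00000036894) had 35.7, 35.7, 20.7 and 49.5 CPM in the mutant, against 72.9, 80.5, 25.4 and 63.6 CPM in WT, with a low replicate 3 in both groups and a log2 fold change of -0.78 ± 0.35 (SE, edgeR QL, BH-adjusted p = 0.168). The other *aimp1* gene (ENSDARG00000060036), *aimp2* and *eef1e1* had log2 fold changes of -0.06 ± 0.13, -0.33 ± 0.17 and 0.05 ± 0.12 (SE).

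A list of other genes known as Atf4 targets, with *atf4b* itself counted among them, went both ways. It does not hold the genes of serine, proline and folate synthesis or the amino acid transporters. Those have lists of their own below, so this list does not cover all known targets. Of 27 in the list 3 rose and 3 fell, where 8.65% of all genes rose and 8.45% fell, and the median log2 fold change was 0.01. The DESeq2 Wald test called 4 higher and 5 lower, beside 11.4% and 12.3% of all genes. limma-voom called 6 higher and 7 lower, beside 18.6% and 17.6%. The stress factor gene *atf3* (1.69 ± 0.33) and the translation inhibitor gene *eif4ebp1* (0.47 ± 0.11) rose, and the cystathionine synthase gene *cbs* (-1.28 ± 0.24) and the stress protein gene *nupr1b* (-0.72 ± 0.11) fell (log2, SE). *eif4ebp1* lost its call when any of 5 single libraries was left out, mutant replicate 1 or 2 or WT replicate 1, 2 or 4 (edgeR QL, BH-adjusted p = 0.0504 to 0.0668). *atf4b* itself averaged 177 ± 18.8 CPM in the mutant and 171 ± 10.9 CPM in WT (SD, n = 4 each), and *asns*, the asparagine synthetase gene and a standard Atf4 target, had a log2 fold change of 0.53 ± 0.24 (SE, edgeR QL, BH-adjusted p = 0.159). Of 13 genes of the sensors and brakes of the integrated stress response 1 fell and none rose, beside the same 8.45% and 8.65% of all genes. It was *gcn1*, which helps the kinase Gcn2 read uncharged tRNA. *gcn1* had 127, 125, 134 and 136 CPM in the mutant, against 179.7, 168, 144 and 175 CPM in WT, a log2 fold change of -0.35 ± 0.10 (SE, edgeR QL, BH-adjusted p = 0.0389). Every mutant library was below every WT library, as in 11.1% of all genes tested. The call was lost when any single library except WT replicate 3 was left out and when scaling by library size only.

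Genes that supply amino acids were read beside the 8.65% of all genes that rose and the 8.45% that fell. An unadjusted p under 0.05 was found for 31.9% of all genes. Of 9 genes of serine, proline and folate synthesis 3 rose and none fell, and there were 2 more at an unadjusted p under 0.05, while *shmt1* had a log2 fold change of -0.48 and the second *mthfd1* gene one of -0.10, neither called. The DESeq2 Wald test called 4 of the 9 higher and none lower, beside 11.4% and 12.3% of all genes. limma-voom called 5 higher and none lower, beside 18.6% and 17.6%. The mitochondrial folate enzyme gene *mthfd1l* rose by 2.70 ± 0.45, its cytosolic relative *mthfd1* (ENSDARG00000018266) by 1.16 ± 0.24 and the serine synthesis gene *phgdh* by 1.04 ± 0.21 (log2, SE). Of 15 amino acid transporter genes 1 rose, *slc7a6* (0.95 ± 0.15), and 1 fell, *slc7a3* (ENSDARG00000020645, -0.82 ± 0.14, log2, SE), and the median log2 fold change of the list was -0.05. In edgeR 5 of the 15 had an unadjusted p under 0.05. The DESeq2 Wald test called 1 higher and 2 lower, and limma-voom 2 higher and 3 lower.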

How the data were processed

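The authors deposited whole-number read counts per Ensembl gene, unscaled, in 1 column for each sample. The submitters' processing notes name STAR 2.3.0e and HTSeq 0.6.0; genome build, annotation, strand setting and treatment of shared reads are not stated in the sources used here. Totals ran from 51246749 to 56409917 counts per library; errors given are spreads between libraries, which include counting error.

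Symbols were looked up by Ensembl ID. Genes were filtered with filterByExpr (minimum count 10), leaving 27050, scaled with TMM and tested with the edgeR 4.0.16 quasi-likelihood test (R 4.3.3) in a model with a genotype term alone, with Benjamini-Hochberg adjustment over all genes tested. SE was the absolute log2 fold change over the root of F, and 95% intervals from the t distribution of the same fit. The symbol rule also matches 2 genes that are not reported here; they stay in the fit across all genes, and counts, medians and sums of members leave them out. From the context lists, up to 4 called genes with the smallest p, or up to 2 where none was called, and a few fixed genes are named. *atf4a* is not analysed here. Of 231 list entries 179 matched by symbol, 3 by synonym and 29 without a final letter, and 20 were unmatched. Steps were tested on simulated counts.

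The members and lists were chosen with earlier results of these data known. No label says whether libraries are separate clutches; p-values therefore reflect the spread among these libraries alone, which may be technical. WT replicates 1 and 2 were the closest pair (mean squared difference 8.1 times counting noise; other pairs within a group 29.4 to 146) and were counted separately. Alternatives were DESeq2 1.42.0 size factors and Wald test, limma 3.58.1 voom, library size only, no filter, a replicate block, removal of genes with identical counts, and left-out libraries. Leaving out *hars2* was chosen after seeing the data. No sequences are printed.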

Additional observations from a re-analysis of the deposited data

Results flagged for a closer look

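In 108 groups of 4 libraries examined, 7 held a library that stood far from the other 3 (CPM, TMM scaled), where chance gives about 1 in 20. Of the members, *lars1* was low in mutant replicate 4, at 34.7 against 38.6 to 38.9 CPM in the other mutant libraries. *aars1* was high in WT replicate 4, at 246 against 156 to 172 CPM, as was *iars1*, at 103.7 against 54.3 to 61.2 CPM. In WT replicate 3, *lars2* was high, at 8.43 against 5.34 to 5.57 CPM. Among other genes named by the rule, *atf4b* was high in mutant replicate 3 (205.0 against 167 to 169 CPM). *fhit*, a gene of dinucleotide hydrolysis, was high in WT replicate 4 (5.96 against 3.77 to 3.95 CPM). Among the mutant libraries, *selenoh* was above 1 count only in replicate 2 (0.358 CPM against 0 to 0.0181 CPM).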

How the results depend on the processing

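With all genes, limma-voom called 5039 higher and 4765 lower, the replicate block 3783 and 3623, and the fit without both replicate 3 libraries 4200 and 3956; leaving out 1 library gave 1262 to 3667 higher and 1235 to 3374 lower. Cytosolic genes called higher numbered 6 with limma-voom, 3 with the replicate block, 3 without both replicate 3 libraries and 0 to 4 with 1 library left out. No cytosolic gene was called lower under any alternative. Mitochondrial genes called higher numbered 1 with limma-voom and 1 without both replicate 3 libraries, and 0 to 1 with 1 library left out; the gene was *iars2*, and none was called lower. The causes were not tested. DESeq2 size factors, the DESeq2 Wald test, library size only, no filter and removal of genes with identical counts gave the reported member counts, *qars1* higher and no other. Over the 384 combinations of a member and an alternative, no called value changed sign, 3 lost a call (all *qars1*) and 16 gained one; for the other named genes, 13 of 479 combinations lost a call and 38 gained one. The median difference in log2 ratio of cytosolic to mitochondrial genes stayed between 0.17 and 0.29. Same-numbered libraries deviated together with correlations of 0.095, 0.0662, 0.46 and 0.237 for replicates 1 to 4, and 5 of 8 libraries correlated best with their own number. The main model has a genotype term alone and does not take up deviation shared by libraries of the same number, whose source was not tested. Under the replicate block *qars1*, *yars1* and *tars1* were called higher. Library-size scaling moved the median log2 fold change of all genes to 0.08. The members had 136 to 12555 counts in a library, and for the lower ones counting error is part of the spread among libraries.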

Other observations

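The factors that use charged tRNAs were also measured. Counts in this section stand beside the shares of all genes tested. In edgeR 8.65% were called higher, 8.45% lower, and 31.9% had an unadjusted p under 0.05. The DESeq2 Wald test called 11.4% higher and 12.3% lower, and limma-voom 18.6% higher and 17.6% lower. Of 11 cytosolic elongation factor genes none was called by edgeR, 5 had an unadjusted p under 0.05, and the median log2 fold change was -0.23. The DESeq2 Wald test called 3 of them lower, and limma-voom called 3 higher and 5 lower. The gene *eef1a1l1*, whose product carries charged tRNA to the ribosome, averaged 10230 ± 682 CPM in the mutant and 12930 ± 1411 CPM in WT (SD, n = 4 each), with a log2 fold change of -0.34 ± 0.12 (SE). *eef1g*, a subunit of its exchange factor, had a log2 fold change of -0.43 ± 0.14 (SE, edgeR QL, BH-adjusted p = 0.059). Of 16 mitochondrial translation factor genes none was called by edgeR or the DESeq2 Wald test, 2 had an unadjusted p under 0.05 in edgeR, limma-voom called 1 higher and 2 lower, and the median was -0.12. The genes *mterf3* (-0.54 ± 0.20) and *mterf4* (-0.44 ± 0.18, log2, SE), members of a family of mitochondrial ribosome and transcription factors, had the smallest p.

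Among 12 genes that modify or complete mitochondrial tRNAs 1 rose and none fell in edgeR, beside 8.65% and 8.45% of all genes. It was *mto1*, whose enzyme modifies the wobble base of mitochondrial tRNAs. *mto1* had 101.0, 144, 54.4 and 90.2 CPM in the mutant, against 41.7, 38.7, 40.7 and 46.2 CPM in WT, a log2 fold change of 1.22 ± 0.25 (SE, edgeR QL, BH-adjusted p = 0.01). All mutant libraries were above all WT libraries, with mutant replicate 3 the lowest of the 4. In this list 6 genes had an unadjusted p under 0.05 in edgeR, the DESeq2 Wald test called 2 higher and 3 lower, and limma-voom called 3 higher and 3 lower. In 3 genes, named here after their values were seen, every mutant library was below every WT library without a call in edgeR: *gatb* (-0.26), *gatc* (-0.44) and *trmt5* (-0.31, log2). In *mtfmt* (0.34) and *trmu* (0.63, log2) every mutant library was above every WT library, also without a call. Of all genes tested, 11.1% were separated downward in this way and 11.0% upward. Of 9 genes of tRNA quality control none was called by edgeR or the DESeq2 Wald test and limma-voom called 4 higher. In edgeR 2 had an unadjusted p under 0.05, *ptrh2* (0.78 ± 0.30) and *dtd2* (0.49 ± 0.18, log2, SE), which act on peptidyl-tRNA and on wrongly charged tRNA. In the short list of 4 cofactor genes edgeR and the DESeq2 Wald test called none, limma-voom called 1 higher and none had an unadjusted p under 0.05 in edgeR, with *hint3* at 0.47 ± 0.21 and *fhit* at 0.43 ± 0.22 (log2, SE).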
